A study of Mus musculus with 12 samples.

Results

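Mouse embryonic fibroblasts carrying RASV12, an oncogenic form of RAS, were compared with fibroblasts carrying only shp53, a short hairpin RNA against the p53 messenger RNA. The comparison used 12 of the 12 arrays of the series, in 4 groups of 3. The RASV12 side had 9 arrays: RASV12 alone (MEF-RAS), shp53 followed by RASV12 (MEF-shp53+RAS) and RASV12 followed by shp53 (MEF-RAS+shp53). The other side had the 3 arrays of shp53 alone (MEF-shp53). Each of the 3 RASV12 groups was set against shp53 and given equal weight, and the genes described are those that moved the same way in all 3, whatever the p53 state and whatever the order of the vectors. All cells were fibroblasts of C57BL/6 embryos at E12.5 to E13.5, grown in serum and transduced with viral vectors, and the series' text calls the 3 arrays of a group independent biological replicates. No group without a vector was used here, so a gene higher with RASV12 and a gene lower with shp53 alone cannot be told apart. The cells with RASV12 alone also lack the hairpin that the shp53 cells carry, whereas both 2-vector groups share it with them. Time after transduction, the vector backbones and the number of embryos were not given in the sources used here.

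RAS proteins are small GTPases that, when bound to GTP, switch on the RAF, MEK and ERK kinase cascade. An oncogenic mutant stays in the GTP-bound state. ERK then raises the AP-1 and ETS transcription factors and their targets, among them growth factor ligands, secreted proteases and the phosphatases that feed back on the cascade. In primary fibroblasts with an intact p53 response, sustained RAS signalling leads to senescence, and loss of p53 lets the cells go on dividing.

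All levels below are log2 processed signal minus the 75th percentile of the same array, so 0 is the level of a spot brighter than 75% of the spots. A difference is the mean of a RASV12 group minus the mean of shp53 on that scale. Differences are given in the order RASV12 alone, shp53 then RASV12, RASV12 then shp53, and their average with the standard error from limma (n = 3 arrays per group). The threshold for a call was 0.05 on p-values adjusted over all genes tested (Benjamini-Hochberg). If a group had no array well above background, its fold is a bound ("at least") against the lowest signal well above background.

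Between 56.6% and 62.4% of the spots of an array were well above background. In each group a pair of arrays was very close (r from 0.993 to 0.998 over genes) and 1 array stood apart from both (r from 0.967 to 0.981). The arrays that stood apart were shp53 replicate 2, RASV12 replicate 2, shp53 then RASV12 replicate 1 and RASV12 then shp53 replicate 1. Fewer genes pass when each close pair counts as 1 array, and more pass when the arrays that stand apart are left out, so counts are given for both, those of gene lists beside the list. With close pairs averaged, list counts stand against 214 higher and 292 lower in each group of all 13938 genes tested. Without the arrays that stand apart they stand against 2337 and 2264.

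Of 13938 autosomal genes tested, 777 (5.57%) were higher than shp53 in each of the 3 RASV12 groups and 1091 (7.83%) were lower in each. Another 104 genes (0.746%) passed the test in each group but in mixed directions. For the average of the 3 groups against shp53, 2746 genes (19.7%) were higher and 2911 (20.9%) lower. The median average difference over all genes was 0.05. The 9 RASV12 arrays all lay above the 3 shp53 arrays for 1375 genes (9.87%) and all below them for 1614 (11.6%). This was so for 754 of the 777 shared higher genes and 1037 of the 1091 shared lower genes. The smallest of the 3 differences was at least 1 log2 unit for 378 of the higher and 729 of the lower genes. The 3 contrasts use the same 3 shp53 arrays, so a gene low on those arrays would count as higher in all 3. With each close pair averaged, 214 higher and 292 lower genes remained shared, and without the 4 arrays that stood apart 2337 and 2264 genes passed, 765 and 1075 of them among the 777 and 1091. Against shp53 replicate 2, the 3 other arrays that stood apart, which entered the choice of these genes, had a median difference of 1.28 for the higher genes, against 1.36 with all arrays, and -1.60 for the lower genes, against -2.11. Leaving out 1 array at a time gave 517 to 942 higher and 738 to 1277 lower genes, with the fewest higher genes without shp53 replicate 3 (517). Scaling arrays by their median in place of the 75th percentile moved the median of all genes to 0.22 and the share of higher genes among the shared calls from 41.6% to 50.4%. With a normexp background correction on the local backgrounds, 77 of which exceeded 5 times the array's median, only 29 higher and 65 lower genes passed in each group, and most calls on single genes below did not. Of 133 named genes called in each group, 101 lost that call under this correction, 57 with close arrays averaged, none without the arrays that stood apart and 0 to 14 without 1 array. With those 77 local backgrounds replaced by the median, 565 of the 777 and 769 of the 1091 passed. The RNA is from whole cultures, so fewer cells of a type and less RNA per cell cannot be told apart.

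A shared direction did not mean an equal size. In a limma F-test among the 3 RASV12 groups, which does not use the shp53 means, 808 of the 1868 shared genes (43.3%) differed between the groups at an adjusted p under 0.05. Over all genes tested the share was 41.4% (5777 genes). It was 349 of the 777 higher genes and 459 of the 1091 lower genes.

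Trp53, the gene the hairpin targets, was used to check the labels. It read -3.22, -3.55 and -3.06 on the shp53 arrays, -0.35, -0.75 and -0.58 with RASV12 alone, -3.98, -3.43 and -3.44 in shp53 then RASV12 and -4.14, -4.01 and -3.83 in RASV12 then shp53. The 9 arrays labelled with the hairpin were all below the 3 without it, and the difference from shp53 was 2.71, -0.34 and -0.72 in the 3 RASV12 groups. The targeted gene thus went with the labels, and it is not a gene shared by the RASV12 groups. Its average difference, 0.55 ± 0.16 (adjusted p = 0.0189), was no longer called without shp53 replicate 1 (0.58, adjusted p = 0.0569) or replicate 2 (0.41, adjusted p = 0.0907). The p53 targets Cdkn1a, which encodes the CDK inhibitor p21, and Mdm2, which encodes the p53 ubiquitin ligase, were read beside it. Cdkn1a differed by 1.21, 0.36 and -0.08 and Mdm2 by 1.73, 0.19 and 0.78. The largest difference of each was with RASV12 alone, the group without the hairpin, and neither gene passed in each group. The average difference of Cdkn1a, 0.50 ± 0.13 (adjusted p = 0.0106), also lost its call without shp53 replicate 2 (0.35, adjusted p = 0.0514).

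Among the genes for RAS proteins and their direct regulators and effectors, 2 of 29 tested rose, near the share over all genes, and 4 fell in each group, and the list's median average difference was 0.14. Hras and Nras themselves did not pass: Hras had an average difference of -0.18 ± 0.21 (adjusted p = 0.524) and Nras of 0.09 ± 0.15 (adjusted p = 0.664), with other Nras probes at 0.71 and 0.28. Whether these mouse probes read the vector's RAS transcript is not given in the sources used here. Rasgrf1, an exchange factor that loads RAS with GTP, was well above background on none of the shp53 arrays and on all 9 RASV12 arrays, where it read -3.86 to 1.20 with a median of -0.16. It was at least 6.79-fold higher with RASV12 alone, 119-fold in shp53 then RASV12 and 97.5-fold in RASV12 then shp53. Its level differed among the 3 groups (F-test adjusted p = 0.000822), with the 2-vector groups above RASV12 alone, and another probe of the gene had a smaller average difference of 2.85. In the other direction, Braf, a kinase directly downstream of RAS, read 0.68, 0.60 and 0.61 on the shp53 arrays and -0.65 to -0.03 with a median of -0.36 on the RASV12 arrays, which do not overlap. The difference was -0.99, -1.20 and -0.78, on average -0.99 ± 0.11 (adjusted p = 7.7e-05). Rasa3, a GTPase-activating protein that turns RAS off, differed by -1.04, -1.36 and -1.58, on average -1.33 ± 0.10 (adjusted p = 5.25e-06). The lower count for the list was 2 in place of 4 without replicate 2 or replicate 3 of RASV12 then shp53, under array median scaling or without the filter on dim probes, and the list's counts were 1 higher and 1 lower with close arrays averaged, and 6 and 5 without the arrays that stood apart. Braf did not pass in each group with close arrays averaged, nor Rasgrf1 under normexp with the extreme backgrounds replaced.

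In a list of 20 ERK feedback inhibitors and related genes, 5 rose and 3 fell in each group, with a median average difference of 0.94. The counts were 4 higher and 0 lower with close arrays averaged, and 9 and 3 without the arrays that stood apart. Dusp6, the phosphatase that dephosphorylates ERK in the cytoplasm and a standard readout of ERK activity, read 2.55, 1.86 and 2.62 on the shp53 arrays and 3.99 to 5.39 with a median of 4.34 on the RASV12 arrays. Every RASV12 array was above every shp53 array, by 1.80, 2.15 and 2.72 in the 3 groups and by 2.22 ± 0.22 (adjusted p = 3.04e-05) on average. Ier3, an immediate early gene that acts in the ERK pathway, rose by 2.57, 2.32 and 1.90, on average 2.26 ± 0.27 (adjusted p = 0.000104). Dusp10, a phosphatase for JNK and p38, rose by 2.77, 1.21 and 1.40, with the largest rise in RASV12 alone (F-test adjusted p = 0.00115). Spred3 and Spred2, members of the Sprouty-related family, complete the 5 and were chosen after their values were seen. Not all members of the list rose. Spry1 read 3.97, 3.02 and 3.95 on the shp53 arrays and 0.06 to 2.72 with a median of 1.54 on the RASV12 arrays, and fell, with differences of -3.46, -1.33 and -1.73 (average -2.18 ± 0.28, adjusted p = 0.000198), most with RASV12 alone (F-test adjusted p = 0.00192). Its call in each group ended without shp53 replicate 1 (largest of the 3 adjusted p-values 0.0543) or replicate 3 (0.0535), and with close arrays averaged, as did that of Dusp10. Spry4 was above all shp53 arrays on all 9 RASV12 arrays, with an average difference of 1.56 ± 0.28 (adjusted p = 0.00157), but did not pass in each group, and Spry2 had 0.66 ± 0.24 (adjusted p = 0.0518).

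The AP-1, ETS and immediate early transcription factors split by family member: 8 of 29 rose and 2 fell in each group, and the median of the list was 0.17, with 3 higher and 1 lower with close arrays averaged, and 8 and 4 without the arrays that stood apart. Fosl1, which encodes the AP-1 subunit FRA-1, read -2.02, -1.32 and -2.13 on the shp53 arrays and 1.12 to 1.68 with a median of 1.46 on the RASV12 arrays. The 3 groups rose by nearly the same amount, 3.21, 3.25 and 3.33, and did not pass the F-test among them (adjusted p = 0.887). The average was 3.26 ± 0.18 (adjusted p = 6.96e-07). Among the ETS factors of the PEA3 group, Etv4 rose by 1.86, 1.75 and 2.76 and Etv1 by 2.02, 3.53 and 3.29, whereas Etv5 had an average difference of 0.17 ± 0.15 (adjusted p = 0.38). Etv1 read -0.37, -0.47 and -0.36 on the shp53 arrays and 1.22 to 3.93 with a median of 2.70 on the RASV12 arrays, and its rise was smaller with RASV12 alone (F-test adjusted p = 0.0189). Phlda1, an immediate early gene induced by growth factors, read 1.59, 1.90 and 1.63 against 3.39 to 4.82 with a median of 4.04 and rose by 2.31 ± 0.25 (adjusted p = 6.01e-05) on average. Myc, a growth-promoting transcription factor, rose by 1.24, 1.22 and 1.31, close to one amount in the 3 groups (F-test adjusted p = 0.953). Its average call was lost with close arrays averaged (1.09, adjusted p = 0.064), and so were the calls in each group of Myc and Etv1. Egr1, often used as an acute ERK readout, had an average difference of -0.23 ± 0.26 (adjusted p = 0.504). The members that fell were Fos and Egr2, acutely induced genes that were named after their values were seen to complete the count. Ccnd1, the cyclin that ERK signalling raises in G1, differed by 1.16, 0.68 and 0.05 and did not pass in each group.

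Of 14 ligands, receptors and processing factors of the EGF family, 3 ligands rose in each group and 1 processing factor fell, with a median of 0.08 that became -0.12 without the arrays that stood apart. Areg, which encodes amphiregulin, read -6.45, -3.98 and -5.76 on the shp53 arrays, 2 of which were well above background, and -1.97 to 3.61 with a median of 0.34 on the RASV12 arrays. Both sets were widely spread, yet they did not overlap. Areg rose by 7.65, 6.33 and 4.34, on average 6.11 ± 0.86 (adjusted p = 0.000324). Ereg, which encodes epiregulin, rose from 0.63, 0.29 and 0.68 to a range of 1.34 to 4.20 with a median of 2.75, and by 3.62, 2.54 and 1.44 in the 3 groups, which differed (F-test adjusted p = 0.0016). Btc, which encodes betacellulin, was well above background on none of the shp53 arrays and was at least 6.63, 7.66 and 14.7-fold higher. Hbegf differed by 1.23, 0.71 and 0.17 and did not pass in each group. Rhbdf1, an inactive rhomboid protein that acts in the release of such ligands, fell, with differences of -0.86, -0.72 and -0.92, on average -0.83 ± 0.10 (adjusted p = 9.72e-05). The list held 1 higher and 0 lower with close arrays averaged, and 4 and 2 without the arrays that stood apart, and Areg, Ereg and Rhbdf1 did not pass in each group with close arrays averaged. With detection required on all arrays 1 rose and 1 fell.

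Of 32 secreted cytokines and growth factors, 8 rose and 4 fell in each group, with a median of 0.87. Lif, an interleukin 6 family cytokine, read -5.29, -5.02 and -4.86 on the shp53 arrays and -1.64 to -0.42 with a median of -1.35 on the RASV12 arrays, and rose by 4.46, 3.83 and 3.64 (average 3.98 ± 0.21, adjusted p = 5.93e-07). The subunits of its receptor moved the opposite way. Lifr fell, with differences of -2.29, -2.12 and -2.25, on average -2.22 ± 0.26 (adjusted p = 0.000106). Il6st, which encodes the subunit gp130, fell, with differences of -2.03, -1.88 and -2.25, on average -2.05 ± 0.16 (adjusted p = 5.69e-06). Bmp2, a bone morphogenetic protein, read -4.67, -4.29 and -4.85 against -0.44 to 3.32 with a median of 1.38 and rose by 4.77, 6.60 and 6.90, least with RASV12 alone (F-test adjusted p = 0.0226). Csf2, which encodes the granulocyte and macrophage growth factor GM-CSF, was well above background on all 9 RASV12 arrays and on no shp53 array. It was at least 28.2, 79.7 and 27.8-fold higher. Vegfa had an average difference of 0.99 ± 0.21 (adjusted p = 0.00412) with all RASV12 arrays above the shp53 arrays, but it was not called in each group. Fgf21, a metabolic hormone, was at least 14.3-fold lower with RASV12 alone and 14.2-fold in RASV12 then shp53. In shp53 then RASV12, 1 of 3 arrays was well above background. The lower count was 2 in place of 4 without shp53 replicate 1, shp53 replicate 3, RASV12 replicate 1 or RASV12 replicate 3. Secreted factors numbered 4 higher and 1 lower with close arrays averaged, and 11 and 4 without the arrays that stood apart. They numbered 6 and 2 with detection required on all arrays.

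Chemokines went both ways, with 4 of 23 higher and 4 lower in each group and a median of -0.17, which was 0.42 among genes detected on all arrays and -1.23 without the arrays that stood apart. Ccl11, which encodes eotaxin, an attractant of eosinophils, read -4.53, -4.03 and -4.67 on the shp53 arrays and -0.92 to 2.48 with a median of 1.05 on the RASV12 arrays, a rise of 6.19, 5.91 and 3.67. Cxcl2, Ccl2 and Ccl7, attractants of neutrophils and monocytes, also rose in each group and are named to complete the count. Cxcl14, a chemokine of epithelial and stromal cells, moved the other way. It read 4.83, 3.96 and 4.87 on the shp53 arrays, -0.51, 1.18 and -0.45 with RASV12 alone, -5.15, -5.41 and -5.80 in shp53 then RASV12 (2 of 3 arrays well above background), and was well above background on no array of RASV12 then shp53. The 3 groups descended in that order and differed (F-test adjusted p = 1.99e-06), and the fall in RASV12 then shp53 was at least 1490-fold. Cxcl15 and Ccl17 were at least 21.9 and 8.16-fold lower on average, and the fourth that fell was Cxcl12, named to complete the count. Without shp53 replicate 2 the lower count was 8 in place of 4. With detection required on all arrays 3 were higher and 1 lower. The list held 4 higher and 2 lower with close arrays averaged, and 4 and 10 without the arrays that stood apart, and Ccl17 lost its call with close arrays averaged or under normexp with the extreme backgrounds replaced.

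Of 22 S100 proteins and related inflammatory genes 9 rose in each group and none fell (7 higher and 0 lower with close arrays averaged, and 10 and 2 without the arrays that stood apart). Their median was 1.21, or 0.96 with dim genes at their bound. S100a8, a subunit of the calcium-binding protein calprotectin, was well above background on no shp53 array and read -1.26 to 4.17 with a median of 0.75 on the RASV12 arrays. It was at least 616, 221 and 44.1-fold higher. Lcn2, which encodes the iron-siderophore binding protein lipocalin 2, read -2.57, -4.31 and -2.52 on the shp53 arrays. It was 5.40, 5.53 and 5.54 with RASV12 alone, 6.28, 4.37 and 4.56 in shp53 then RASV12 and 1.64, 0.09 and 0.01 in RASV12 then shp53. All RASV12 arrays were higher than all shp53 arrays, with the last group well below the other RASV12 groups (F-test adjusted p = 0.000346). Saa3, an acute phase apolipoprotein, had the same order, with rises of 7.84, 7.76 and 3.87 (F-test adjusted p = 0.023), and did not pass in each group with close arrays averaged. Nos2, the inducible nitric oxide synthase, rose by 4.03, 3.10 and 2.72, on average 3.28 ± 0.31 (adjusted p = 2.3e-05).

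**Figure D1:**
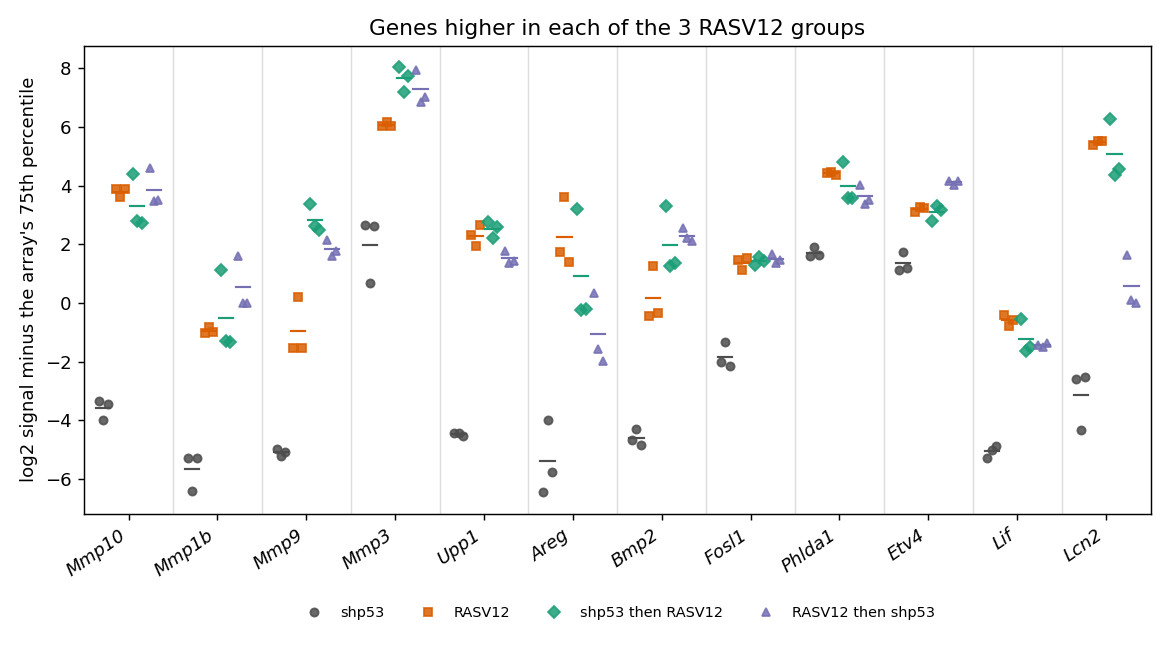
Levels of 12 genes on each array (vertical axis, log2 processed signal minus the array's 75th percentile), with a point per array and a bar at the mean of each group of 3. For each of these genes the 9 RASV12 arrays lie above the 3 shp53 arrays, while the order of the 3 RASV12 groups differs from gene to gene, as for Mmp9 and Lcn2.

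Several secreted matrix metalloproteinases, of the stromelysin, collagenase and gelatinase types, rose in each group. Mmp10, which encodes stromelysin 2, read -3.32, -3.98 and -3.44 on the shp53 arrays and 2.73 to 4.61 with a median of 3.63 on the RASV12 arrays. The groups lie far apart and the rise was 7.38, 6.88 and 7.44 (average 7.24 ± 0.36, adjusted p = 4.52e-07), and the F-test among the RASV12 groups did not pass (adjusted p = 0.505). Mmp3, stromelysin 1, was already high on the shp53 arrays at 2.67, 0.67 and 2.64 and rose to a range of 6.02 to 8.04 with a median of 7.03, by 4.08, 5.67 and 5.29 in the 3 groups. The 2 mouse interstitial collagenases rose as well: Mmp1b from -5.27, -6.41 and -5.28 (2 of 3 arrays well above background) to a range of -1.32 to 1.60 with a median of -0.82, by 4.71, 5.16 and 6.19, and Mmp1a, well above background on no shp53 array, by at least 26.2, 43.2 and 48.6-fold. These 2 genes are close paralogs, and their probes may read more than 1 of them. Mmp9, gelatinase B, read -4.97, -5.20 and -5.08 on the shp53 arrays, -1.52, 0.20 and -1.53 with RASV12 alone, 3.38, 2.63 and 2.48 in shp53 then RASV12 and 2.15, 1.60 and 1.78 in RASV12 then shp53. It rose in each group, least with RASV12 alone (F-test adjusted p = 0.000226). In the list of 30 matrix proteases and inhibitors as a whole, 7 rose and 5 fell in each group and the median was -0.03 (4 higher and 3 lower with close arrays averaged, and 9 and 9 without the arrays that stood apart). Mmp1b is not in that list, and the others that rose were Plau, which encodes urokinase, the cathepsin Ctsl and the inhibitor Serpinb2. The 5 that fell, named after their values were seen, were Mmp14, which is bound to the membrane, Adamts1, Adamts2, Adamts5 and the inhibitor Timp3.

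Mmp1b, Mmp3, Mmp1a and Mmp10 lie in one cluster on mouse chromosome 9, and their RefSeq promoter windows (build GRCm38.p6, 250 bases before to 50 after the start, 5′ to 3′ on the strand of the gene) are shown because these genes moved together and each window holds 1 match to the AP-1 motif TGANTCA. Upp1, described below, and Lif are shown beside them for the same motif on another chromosome. Capitals mark the motif.

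Mmp10 (chr9:7502092-7502391, plus strand): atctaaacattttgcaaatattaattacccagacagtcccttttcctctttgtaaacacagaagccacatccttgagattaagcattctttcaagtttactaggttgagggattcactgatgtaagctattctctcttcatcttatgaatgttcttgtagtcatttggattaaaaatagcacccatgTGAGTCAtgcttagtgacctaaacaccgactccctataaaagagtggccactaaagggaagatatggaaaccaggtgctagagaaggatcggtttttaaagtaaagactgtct

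Mmp3 (chr9:7445572-7445871, plus strand): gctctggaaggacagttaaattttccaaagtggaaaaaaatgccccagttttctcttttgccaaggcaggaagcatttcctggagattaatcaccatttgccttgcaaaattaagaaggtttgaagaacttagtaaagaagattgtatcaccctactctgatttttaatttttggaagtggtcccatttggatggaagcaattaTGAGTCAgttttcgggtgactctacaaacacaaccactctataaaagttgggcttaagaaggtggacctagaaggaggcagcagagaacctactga

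Mmp1a (chr9:7463891-7464190, plus strand): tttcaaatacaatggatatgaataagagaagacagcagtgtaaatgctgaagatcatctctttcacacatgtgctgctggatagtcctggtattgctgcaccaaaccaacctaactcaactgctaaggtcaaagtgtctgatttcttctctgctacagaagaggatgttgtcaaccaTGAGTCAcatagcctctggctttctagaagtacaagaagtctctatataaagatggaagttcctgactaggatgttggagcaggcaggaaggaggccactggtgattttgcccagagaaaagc

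Mmp1b (chr9:7387977-7388276, minus strand): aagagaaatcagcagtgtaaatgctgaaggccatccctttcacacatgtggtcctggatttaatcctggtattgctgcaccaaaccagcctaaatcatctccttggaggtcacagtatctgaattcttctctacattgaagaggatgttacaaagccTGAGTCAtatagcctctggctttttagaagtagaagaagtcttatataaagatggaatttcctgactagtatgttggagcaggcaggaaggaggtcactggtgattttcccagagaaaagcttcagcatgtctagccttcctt

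Upp1 (chr11:9117758-9118057, plus strand): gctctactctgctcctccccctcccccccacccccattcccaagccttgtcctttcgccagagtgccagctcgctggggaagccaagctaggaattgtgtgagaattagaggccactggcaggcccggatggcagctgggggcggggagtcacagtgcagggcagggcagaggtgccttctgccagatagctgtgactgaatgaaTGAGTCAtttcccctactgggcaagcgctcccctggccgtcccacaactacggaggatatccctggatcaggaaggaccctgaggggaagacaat

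Lif (chr11:4257318-4257617, plus strand): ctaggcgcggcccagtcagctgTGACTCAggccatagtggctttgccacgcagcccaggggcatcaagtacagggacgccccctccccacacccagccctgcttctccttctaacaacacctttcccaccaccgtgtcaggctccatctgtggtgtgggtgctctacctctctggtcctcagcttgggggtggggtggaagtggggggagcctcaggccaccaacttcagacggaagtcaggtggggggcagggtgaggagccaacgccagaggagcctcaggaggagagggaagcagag

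The match began 63 bases before the annotated start in Mmp10, 46 before it in Mmp3, 73 in Mmp1a, 93 in Mmp1b, 45 in Upp1 and 228 in Lif. Over all 14048 promoter windows of genes tested (11053 of the 13938 genes had at least 1), 5.61% held TGANTCA, which reads the same on both strands. Among windows of the genes higher in each group the share was 9.90% (78 of 788), and among those of the genes lower in each group it was 5.65%. The cyclic AMP response motif TGACGTCA, which does not overlap with the AP-1 motif as searched, was in 2.97% of all windows, 1.65% of the higher and 1.82% of the lower ones. One such match lies in the Areg window. The CArG box, bound by serum response factor, was in 1.38%, 1.27% and 2.49%. The ETS motif CCGGAAG, on either strand, was less frequent in both sets, in 15.6% of all windows, 9.52% of the higher and 6.89% of the lower ones. The E-box CACGTG was in 9.40%, 8.12% and 7.56%, and the NF-Y motif CCAAT in 37.3%, 34.8% and 34.6%. These are counts of letters in short windows, some genes have more than 1 window, and no test was made of them.

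Several of the largest shared rises were in genes outside these families. Upp1, which encodes uridine phosphorylase 1, an enzyme of pyrimidine salvage, read -4.44, -4.43 and -4.54 on the shp53 arrays and 1.37 to 2.77 with a median of 2.23 on the RASV12 arrays. Its spread within groups was small and it rose by 6.77, 7.01 and 5.99, on average 6.59 ± 0.17 (adjusted p = 2.26e-08), while another probe had an average difference of 3.11. Gap43, a growth-associated protein of neurons, was already above the 75th percentile on the shp53 arrays, at 0.27, 1.42 and 0.21, and rose to a range of 4.69 to 6.49 with a median of 5.72, by 4.13, 5.12 and 5.47 in the 3 groups. Sox7, a transcription factor of the SOX family with 2 of 3 shp53 arrays well above background, rose by 4.71, 6.17 and 6.62 and Gpr149, an orphan receptor, by 5.18, 5.06 and 7.41, both most in RASV12 then shp53 (F-test adjusted p = 0.04 and 0.00151). Fam78b rose by 5.70 ± 0.32 (adjusted p = 9.03e-07) on average, Lratd1 by 4.82 ± 0.37 (adjusted p = 5.4e-06) and Ttyh1 by 4.95 ± 0.21 (adjusted p = 1.82e-07). Of the 46 shared genes that were well above background on no shp53 array and on all 9 RASV12 arrays, Kcnk10, a 2-pore potassium channel, was at least 110-fold higher on average. Its 9 levels lay within a narrow range, 0.13 to 1.53 with a median of 0.63. Stra6, the receptor for retinol binding protein, was at least 45.6-fold higher, and Sprr2h, a small proline-rich protein of the cornified envelope with close paralogs, at least 57-fold.

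Many genes of the fibroblast matrix fell. Of 28 collagen chains and collagen-processing genes 14 fell in each group and none rose, with a median average difference of -1.46 (the lower count was 7 with close arrays averaged and 23 without the arrays that stood apart). Of 42 genes for elastic fibres, proteoglycans and matrix glycoproteins 23 fell and 1, the laminin chain Lamb1, rose, with a median of -1.63 (0 higher and 12 lower with close arrays averaged, and 1 and 29 without the arrays that stood apart). All 9 RASV12 arrays were below all shp53 arrays for 16 of the 28 and 25 of the 42, and for 11.6% of all genes tested. Eln, which encodes elastin, read -0.17, 0.50 and -0.14 on the shp53 arrays and -5.96 to -4.12 with a median of -4.72 on the RASV12 arrays, with RASV12 alone well above background on 2 of 3. The groups fell by nearly one amount, with differences of -5.13, -4.73 and -4.82 (F-test adjusted p = 0.718), on average -4.89 ± 0.35 (adjusted p = 4.35e-06). Postn, which encodes the matrix glycoprotein periostin, fell from 5.59, 4.70 and 5.13 to a range of -1.06 to 1.95 with a median of -0.13, with differences of -5.37, -5.17 and -4.75. The small leucine-rich proteoglycans Podn and Ogn, which encode podocan and osteoglycin, were high with shp53 and low with RASV12. Podn read 4.00, 1.86 and 4.07 with shp53 and -4.35 to -1.86 with a median of -3.40 with RASV12. Ogn read 4.28, 4.68 and 4.37 and -3.63 to 0.66 with a median of -2.26. Podn fell, with differences of -6.25, -7.04 and -6.70 and Ogn with differences of -6.18, -7.57 and -4.84, the latter least in RASV12 then shp53 (F-test adjusted p = 0.00729). Omd, a further member of that family, was at least 41.9-fold lower on average. Fndc1 and Abi3bp, which encode matrix proteins, were at least 278 and 268-fold lower on average, and another Fndc1 probe had an average difference of -5.24. Postn did not pass in each group with close arrays averaged. Macrophage and leukocyte markers, whose values are given below, fell in the same groups. Of 18, 15 fell in each, or 3 with close arrays averaged and 4 with detection required on all arrays. Their part in the falls of the matrix genes was not tested. Differences from shp53 replicate 2, the shp53 array on which the markers were lowest, are given below. They rest on 1 shp53 array, and the macrophage list still had a median difference of -2.89 there, so they are no test of that part.

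Among the collagen chains, Col11a1, a minor fibrillar chain, fell from 1.52, 2.31 and 1.46 to a range of -2.24 to -0.76 with a median of -1.49, with differences of -2.87, -3.45 and -3.77, and Col5a2, a chain of type V collagen, with differences of -2.83, -3.54 and -3.43. Neither passed the F-test among the RASV12 groups (adjusted p = 0.0642 and 0.159). Col8a2, a short-chain network collagen, fell, with differences of -3.65, -4.99 and -6.70, most in RASV12 then shp53 (F-test adjusted p = 0.00197), where 2 of 3 arrays were well above background. Col3a1 read 6.33, 5.75 and 6.18 on the shp53 arrays and 1.13 to 5.09 with a median of 2.69 on the RASV12 arrays. The arrays that stood apart in the 2-vector groups reached 5.09 and 4.95, the highest of the RASV12 arrays, and its call in each group was lost without shp53 replicates 1 or 3 or either close array of the 2-vector groups, or with close arrays averaged (for single omissions, largest adjusted p-values 0.0685 to 0.0905). The chains of the most abundant fibroblast collagen did not pass in each group: Col1a1 had an average difference of -0.68 ± 0.42 (adjusted p = 0.219) and Col1a2 of -1.25 ± 0.32 (adjusted p = 0.0105), which was not called without shp53 replicate 3 (-1.16, adjusted p = 0.0528). The growth plate collagen Col10a1 and the cartilage glycoprotein Comp, both read as cartilage markers, were at least 195 and 46.5-fold lower on average.

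**Figure D2:**
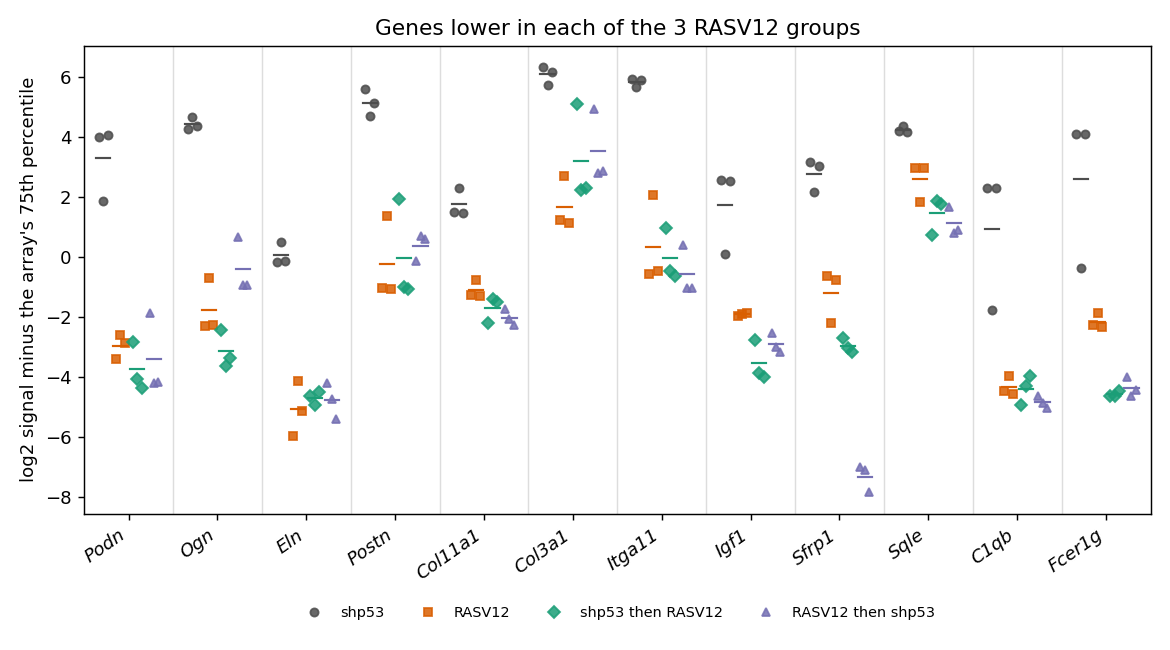
Levels of 12 genes on each array (vertical axis, log2 processed signal minus the array's 75th percentile), with a point per array and a bar at the mean of each group of 3. All 9 RASV12 arrays lie below the shp53 arrays. For Podn, Postn, Col3a1, Itga11, Igf1, Sfrp1, C1qb and Fcer1g shp53 replicate 2 lies below the other shp53 arrays, and for Ogn, Eln, Col11a1 and Sqle above them.

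The matrix receptor Itga11, the integrin subunit that binds fibrillar collagen, fell as well, from 5.93, 5.67 and 5.91 to a range of -1.04 to 2.08 with a median of -0.47 with differences of -5.48, -5.87 and -6.39. In the list of 19 integrin subunits and relatives, 7 fell and 3 rose in each group, with a median of -0.40. Itgbl1, an integrin beta-like protein, fell, with differences of -3.29, -4.11 and -6.68, most in RASV12 then shp53 (F-test adjusted p = 0.000417). The 3 that rose, named after their values were seen, were Itga2, Itga4 and Itgb7. The lower count was 4 in place of 7 without shp53 replicate 1 or replicate 3. Integrin counts were 1 higher and 2 lower with close arrays averaged, and 4 and 8 without the arrays that stood apart. They were 1 and 7 with detection required on all arrays.

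Contractile and actin cytoskeleton genes fell in 9 of 25 cases and rose in none, with a median of -0.79. The lower count was 2 with close arrays averaged and 16 without the arrays that stood apart. It was 5 under array median scaling or with detection required on all arrays. Acta2, the smooth muscle actin that marks myofibroblasts, read 7.50, 7.37 and 7.49 on the shp53 arrays, 6.09, 6.37 and 6.14 with RASV12 alone, 3.18, 4.88 and 4.82 in shp53 then RASV12 and 5.46, 6.22 and 6.37 in RASV12 then shp53. It was lower in each group, with differences of -1.26, -3.16 and -1.44, and lowest in shp53 then RASV12 (F-test adjusted p = 0.00665). This call was a narrow one, since it ended without any 1 array of shp53 or RASV12, or replicate 2 or 3 of RASV12 then shp53 (largest adjusted p-values 0.0515 to 0.115), and also under array median scaling, without the filter on dim probes or with close arrays averaged. Actg2, enteric smooth muscle actin, fell, with differences of -2.96, -6.94 and -3.43 (average -4.44 ± 0.44, adjusted p = 3.12e-05). Mylk, the kinase for the myosin light chain, and Myocd, the myocardin coactivator of serum response factor, were at least 39.7 and 5.63-fold lower on average, and Des, the muscle intermediate filament desmin, at least 6.58-fold. Actg2 and Des did not pass in each group with close arrays averaged, nor Myocd and Des under normexp with the extreme backgrounds replaced.

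A pair of TGF beta ligands fell. Tgfb3 read 4.15, 4.47 and 4.08 on the shp53 arrays and 0.86 to 1.93 with a median of 1.40 on the RASV12 arrays, and fell, with differences of -2.61, -3.10 and -2.85, on average -2.85 ± 0.21 (adjusted p = 5.11e-06). Tgfb2 fell, with differences of -3.76, -3.32 and -2.19, on average -3.09 ± 0.48 (adjusted p = 0.000624), and the receptor Acvr2a with differences of -1.97, -1.91 and -1.86. In the list of 29, 8 fell and 1 (Tgif1, a corepressor of SMADs) rose, and the median was -0.21. This count of 8 was 4 without shp53 replicate 1 or replicate 3 and 5 without any of shp53 replicate 2, RASV12 replicate 3 or replicates 2 and 3 of either 2-vector group, left out singly. It was also 4 without the filter on dim probes. The list held 4 higher and 5 lower genes under array median scaling, 0 higher and 2 lower with close arrays averaged, and 4 and 11 without the arrays that stood apart, and Tgfb2 did not pass in each group with close arrays averaged.

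Some receptors and binding proteins for growth factors were also lower. Of 28 growth factor receptors, 8 fell and none rose, with a median of -0.32 (0 higher and 2 lower with close arrays averaged, and 2 and 11 without the arrays that stood apart). Pdgfrb, the receptor for PDGF-B on mesenchymal cells, fell from 3.37, 3.64 and 3.46 to a range of 1.53 to 2.95 with a median of 1.96, with differences of -1.69, -0.79 and -1.79, whereas Pdgfra had an average difference of 0.53 ± 0.32 (adjusted p = 0.217) in the other direction. Flt1, a receptor for VEGF, fell, with differences of -1.68, -4.22 and -5.01, more in the 2-vector groups than with RASV12 alone (F-test adjusted p = 2.68e-05). Ntrk3, a neurotrophin receptor, was at least 6.61-fold lower on average. Of 12 genes of the IGF axis 4 fell and none rose, with a median of -2.18 (the lower count was 1 with close arrays averaged and 7 without the arrays that stood apart). Igf1 read 2.57, 0.12 and 2.54 on the shp53 arrays and -3.99 to -1.84 with a median of -2.74 on the RASV12 arrays, with shp53 replicate 2 nearest to the RASV12 arrays, and fell, with differences of -3.63, -5.27 and -4.64. Igfbp2 fell, with differences of -3.92, -7.37 and -8.96, in an order of the 3 groups that the F-test separated (adjusted p = 2.96e-05). Pappa, the protease that frees IGF from its binding proteins, had an average difference of -2.94 ± 0.32 (adjusted p = 5.83e-05) and Igfbp6 of -1.74 ± 0.24 (adjusted p = 0.000277). Pdgfrb, Flt1, Ntrk3, Igf1, Pappa and Igfbp6 did not pass in each group with close arrays averaged, and Ntrk3 neither without the filter on dim probes nor under normexp with the extreme backgrounds replaced.

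The list of 32 Wnt ligands, receptors and antagonists held 15 lower and 2 higher genes, with a median of -1.47 (0 higher and 8 lower with close arrays averaged, and 3 and 17 without the arrays that stood apart). With detection required on all arrays the counts were 1 higher and 6 lower. Sfrp1, a secreted Wnt antagonist, read 3.16, 2.16 and 3.04 on the shp53 arrays, -0.62, -2.18 and -0.75 with RASV12 alone and -2.69, -3.03 and -3.14 in shp53 then RASV12. In RASV12 then shp53 it was well above background on no array, at least 437-fold lower than with shp53. Wnt4, a ligand, was 16-fold lower with RASV12 alone and, well above background on no array of the 2-vector groups, at least 50.1 and 47.3-fold lower there, and another probe had an average difference of -3.31. Sfrp4, a further antagonist, fell, with differences of -4.09, -5.27 and -3.71, with 1 of 3 arrays well above background in shp53 then RASV12. Ligands, receptors and antagonists were all among those that fell. The 2 that rose, Wnt5a and Frzb, were named after their values were seen.

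Cholesterol synthesis genes were lower almost as a set. The average of the 3 groups was called lower for 21 of 22, and for 20.9% of all genes tested. All 9 RASV12 arrays were below the shp53 arrays for 19 of 22, and for 11.6% of all genes tested. The list's median was -1.59. In each group separately, 9 passed and none rose. Sqle, which encodes squalene epoxidase, read 4.22, 4.37 and 4.16 on the shp53 arrays and 0.75 to 2.98 with a median of 1.77 on the RASV12 arrays and fell, with differences of -1.65, -2.78 and -3.12 (average -2.52 ± 0.31, adjusted p = 0.000137). Hmgcs1, which makes the HMG-CoA that enters the pathway, fell, with differences of -1.60, -2.44 and -2.14, and Insig1, a sterol sensor that restrains it, with differences of -1.58, -1.91 and -3.13. The list's median difference was -0.99 with RASV12 alone, -1.85 in shp53 then RASV12 and -2.01 in RASV12 then shp53. The count of 9 was 4 without shp53 replicate 2, shp53 replicate 3 or RASV12 replicate 2, and 5 without shp53 replicate 1 or RASV12 then shp53 replicate 3. It was 1 with close arrays averaged and 16 without the arrays that stood apart, 3 under array median scaling and 5 without the filter on dim probes, and Sqle and Insig1 were among those lost with close arrays averaged.

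Amino acid response and endoplasmic reticulum stress genes were lower by less. On average 14 of 28 were called lower (20.9% of all genes tested) and none higher, 5 fell in each group and the median was -0.59. Trib3, a pseudokinase induced by the ATF4 pathway, read 4.58, 4.21 and 4.61 against 0.65 to 3.74 with a median of 1.10 and fell, with differences of -2.46, -2.68 and -3.43. This call ended without RASV12 replicate 2 or shp53 replicates 1 or 3 (largest adjusted p-values 0.0507, 0.0520 and 0.0530). Aldh1l2, a mitochondrial folate enzyme, fell, with differences of -2.65, -2.43 and -2.50, on average -2.53 ± 0.35 (adjusted p = 0.000299). The count of 5 was 2 without shp53 replicate 1, 3 without shp53 replicate 3 or RASV12 replicate 2, 10 without shp53 then RASV12 replicate 1 and 9 without RASV12 then shp53 replicate 1, and 0 with close arrays averaged and 15 without the arrays that stood apart.

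Among adhesion and mesenchymal transition genes 5 of 22 rose and 2 fell, with a median of 0.18 (4 higher and 1 lower with close arrays averaged, and 6 and 5 without the arrays that stood apart). Hmga2 and Hmga1 encode architectural chromatin proteins of embryonic and transformed cells. Hmga2 rose by 1.98, 2.03 and 2.51 and Hmga1 by 2.12, 2.12 and 1.97. Hmga1 read 4.62, 4.98 and 4.58 on the shp53 arrays and 6.59 to 7.24 with a median of 6.72 on the RASV12 arrays, and did not pass the F-test among the RASV12 groups (adjusted p = 0.755). Other Hmga1 probes had average differences of 2.63 and 0.71. Twist2, a mesenchymal transcription factor, rose by 1.63, 1.73 and 1.49 and Alcam, an adhesion molecule, by 2.57, 2.10 and 1.69. Cdh3, which encodes P-cadherin, fell, with differences of -2.89, -4.87 and -3.43, with 2 of 3 arrays of shp53 then RASV12 well above background.

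**Figure D3:**
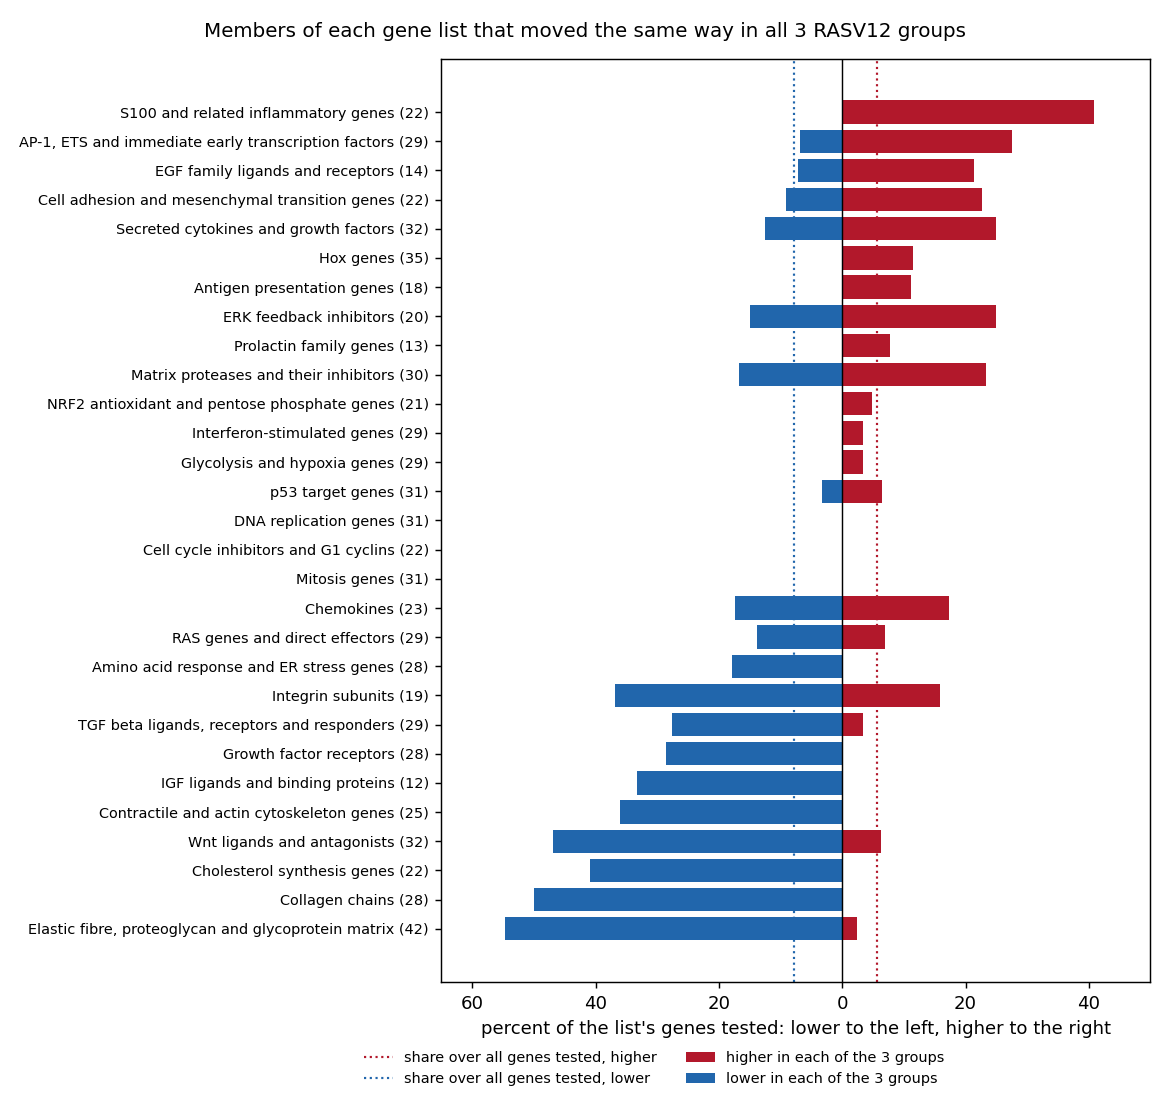
Share of the tested members of 29 gene lists (number tested in brackets) that were higher (right) or lower (left) in each of the 3 RASV12 groups, with dotted lines at the shares over all genes tested, 5.57% and 7.83%. The matrix and cholesterol lists extend to the left, the S100 and AP-1 lists to the right, and the DNA replication, cell cycle inhibitor and mitosis lists have no bar.

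Macrophage and leukocyte markers fell beside the matrix genes and further. Of 18 tested, 15 were lower in each group and none higher, with a median of -6.17, or -5.83 with dim genes at their bound. The lower count was 3 with close arrays averaged and 17 without the arrays that stood apart, and C1qb, Fcer1g and Aif1 were among those lost with close arrays averaged. It was 4 with detection required on all arrays, where markers kept only through the shp53 group drop out. C1qb, a subunit of complement C1q, read 2.31, -1.74 and 2.30 on the shp53 arrays and -5.02 to -3.95 with a median of -4.55 on the RASV12 arrays. Fcer1g, the signalling chain of Fc receptors, read 4.09, -0.36 and 4.09 and -4.63 to -1.87 with a median of -4.43, and both fell, with average differences of -5.47 ± 0.71 (adjusted p = 0.000198) and -6.29 ± 0.77 (adjusted p = 0.000129). Cx3cr1, the fractalkine receptor, was well above background on all 3 shp53 arrays and on none of the 9 RASV12 arrays, at least 159-fold lower on average, and C1qa, C1qc and Aif1 were at least 231, 318 and 78.4-fold lower. Their summed level, in units of the array's 75th percentile, was 15.0 to 144 with shp53, 10.1 to 21.7 with RASV12 alone, 9.21 to 12.8 in shp53 then RASV12 and 6.25 to 9.38 in RASV12 then shp53. Of the 19 markers on the array, 18 were well above background on all 3 shp53 arrays, and 14, 8 and 7 on all 3 arrays of the RASV12 groups. Ptprc and Cx3cr1 were above background on none of the RASV12 arrays.

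The level of these markers differed within the shp53 group. Their median was 2.68 and 2.74 on shp53 replicates 1 and 3 and -1.35 on replicate 2. Against shp53 replicate 2, the other arrays that stood apart had a median difference of -0.99 for the collagen list, -1.13 for the elastic fibre and proteoglycan list and -2.89 for the macrophage list. For single genes this difference, beside the average over all arrays, was -4.81 and -4.89 for Eln, -4.52 and -5.91 for Itga11, -2.68 and -2.85 for Tgfb3 and -4.27 and -6.67 for Podn. It was -1.86 and -4.29 for Sema4d, a semaphorin of immune cells among others, -1.01 and -5.40 for the myeloid receptor Trem2 and -2.50 and -4.51 for Igf1. Trem2 lost its call in each group without shp53 replicates 1 or 3 or any 1 array of RASV12 alone (for single omissions, largest adjusted p-values 0.0666 to 0.135). Lyl1 and Arhgap25, genes of blood cells, were well above background on every shp53 array and on no RASV12 array, at least 48.5 and 22.7-fold lower on average. Sema4d, Trem2, Lyl1 and Arhgap25 did not pass in each group with close arrays averaged, nor Trem2 without the filter on dim probes.

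Fibroblast markers were present in every group: 16 of 16 were well above background on all arrays. Their summed level was 548 to 776 with shp53 and 419 to 725 in the RASV12 groups. In each group 5 fell and 1 (Twist2) rose, and the 5 included Fap, the fibroblast activation protein, which fell, with differences of -2.89, -1.45 and -1.75. Thy1 differed by -0.64, -0.66 and -1.58 and did not pass in each group. The count of 5 was 2 without shp53 replicate 1 and 3 without shp53 replicate 3 or replicate 2 or 3 of RASV12 then shp53, with 1 higher and 1 lower with close arrays averaged, and 1 and 8 without the arrays that stood apart. Of 6 skeletal and heart muscle markers tested, 4 fell in each group (2 with close arrays averaged, 5 without the arrays that stood apart and 1 with detection required on all arrays). Their summed level was 8.67 to 15.8 with shp53 and 0.439 to 3.92 in the RASV12 groups. The troponins Tnni2 and Tnnt2 were at least 12.1 and 9.03-fold lower on average, and so was the fast myosin Myh2, which is not in that list, by at least 25.2-fold. Myod1, Myog and Myf5, which define that lineage, were well above background on no shp53 array. Acta1, the skeletal muscle actin, fell, with differences of -1.76, -4.35 and -2.84. Of 10 epithelial markers, 1 rose in each group (Sprr1a, a cornified envelope protein, by 2.54, 2.13 and 5.69, a call lost without shp53 replicate 2 with a largest adjusted p of 0.0515), while Cdh1 and Epcam were above background on no array. Of 5 adipocyte markers 1, Cebpa, fell in each group (3 without shp53 replicate 2), and of 9 endothelial markers 1, Vwf, whose call was lost without shp53 replicate 1 (largest adjusted p of 0.0501). Of 8 cartilage and bone markers 2 fell in each group, Col10a1 and Comp (0 with detection required on all arrays). None of 10 neural markers or of the 1 erythroid marker tested moved in each (1 neural marker rose and 2 fell without the arrays that stood apart). With close arrays averaged none of the epithelial, adipocyte and endothelial markers passed in each group, and Acta1 did not either. The part of other cell types in the results was not tested.

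Genes of other kinds were also among the largest falls. Galnt16, a glycosyltransferase that starts O-linked chains, read 2.73, 0.88 and 2.74 on the shp53 arrays and -5.52 to -2.96 with a median of -3.13 on the RASV12 arrays, and fell, with differences of -5.23, -5.17 and -7.60, most in RASV12 then shp53 (F-test adjusted p = 0.0014). C1qtnf3, a secreted protein with a C1q-like domain, read 4.23, 3.51 and 4.30 on the shp53 arrays and -6.50 to 0.07 with a median of -2.44 on the RASV12 arrays, and fell, with differences of -4.20, -9.50 and -7.58, least with RASV12 alone (F-test adjusted p = 0.0019). The glutamate transporter Slc1a6 fell, with differences of -4.19, -4.87 and -6.85, and neither it nor C1qtnf3 passed in each group with close arrays averaged. Of the 114 shared genes well above background on all shp53 arrays and on no RASV12 array, Tmem178 was at least 43.1-fold lower on average and Insc, a polarity protein of oriented cell division, at least 29.1-fold.

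Other programmes were not shared by the 3 RASV12 groups. None of 31 mitosis genes moved the same way in each (1 without the arrays that stood apart). Their median difference was -0.88 with RASV12 alone, 0.55 in shp53 then RASV12 and 0.97 in RASV12 then shp53, so the signs differ between the group without the hairpin and the 2-vector groups. The list's median level was 0.54, 0.96 and 0.73 on the shp53 arrays. On the apart arrays of the 2-vector groups it was 0.26, below that range, and 0.69, within it. The higher levels were on the close arrays, 1.85 and 1.75 in shp53 then RASV12 and 2.18 and 2.29 in RASV12 then shp53. Against shp53 replicate 2, the other arrays that stood apart had a median difference of -1.02. DNA replication genes had median differences of -0.17, 0.99 and 1.09, and of -0.26 for the other apart arrays against shp53 replicate 2. None of 31 was shared with all arrays, but 10 were higher in each group without the arrays that stood apart. Of 22 cell cycle inhibitors and G1 cyclins, none moved in each group (2 rose and 2 fell without the arrays that stood apart), and Cdkn2a, the locus of p16 and ARF, had an average difference of 0.30 ± 0.21 (adjusted p = 0.284). For p53 targets, 2 of 31 rose, Psrc1 and Polk, and 1 fell, Sesn1, in each group, near or under the shares over all genes. Psrc1 rose by 1.45, 1.31 and 1.49, Polk by 0.92, 0.77 and 1.34 and Sesn1 fell, with differences of -1.61, -1.15 and -0.80. The p53 list held 1 higher and 0 lower with close arrays averaged. It held 6 and 3 without the arrays that stood apart, near or under the shares over all genes in that setting. Polk and Sesn1 did not pass with close arrays averaged.

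Interferon-stimulated genes had a median difference of -0.77 with RASV12 alone, 1.97 in shp53 then RASV12 and 1.20 in RASV12 then shp53. The list's median level was 2.37 on RASV12 replicate 2, and on the other arrays of RASV12 alone -1.11 and -1.13. Of 29, none fell in each group (2 without the arrays that stood apart), and the 1 that rose was Ifit2, by 1.08, 1.84 and 2.06. Nlrc5, the transactivator of MHC class I genes, read -1.26, -3.43 and -1.21 against 1.03 to 3.28 with a median of 2.05 and rose by 3.17, 4.08 and 4.87 (another probe by 1.51 on average), and H2-D1, a class I gene with close paralogs, also rose in each group, completing 2 of 18 antigen presentation genes (4 under array median scaling). The H2-D1 call was lost without shp53 replicate 2, RASV12 replicate 2 or RASV12 replicate 3 (largest adjusted p-values 0.0554 to 0.109), and also with the replicate block, under quantile scaling, without the filter on dim probes or with close arrays averaged. Of 13 prolactin family genes, placental hormones with near-identical copies whose probes may read more than 1 gene, Prl2c5 rose in each group, by 10.45, 9.21 and 2.67, a call lost with close arrays averaged. Without RASV12 then shp53 replicate 1, 3 of these genes rose in place of 1. The Prl2c5 level with RASV12 alone and in shp53 then RASV12 was far above that in RASV12 then shp53 (F-test adjusted p = 2.22e-05). On average 8 of 35 Hox genes were called higher and 13 lower (19.7% and 20.9% of all genes tested), with a median of -0.04. In each group 4 of the 35 rose and none fell (1 higher and 0 lower with close arrays averaged, and 6 and 2 without the arrays that stood apart). All 4 lie in the HoxB cluster. Hoxb7 rose by 0.93, 1.77 and 2.60, Hoxb5 by 0.84, 1.30 and 2.40 and Hoxb6 by 1.06, 1.07 and 2.26. The rises were largest in RASV12 then shp53 (F-test adjusted p = 0.000452, 1.34e-05 and 0.0039). The fourth, Hoxb3, rose by 0.61, 1.73 and 1.36 on its brighter probe, while another probe had an average difference of 0.12, and its call was lost without RASV12 replicates 1 or 3 or shp53 replicates 1 or 3 (largest adjusted p-values 0.0786 to 0.0926). Of 29 glycolysis genes 1 (Pkm) and of 21 antioxidant genes 1 (Srxn1, which repairs peroxiredoxins, by 1.44, 1.02 and 1.22) rose in each group. Both are under the share over all genes tested, 5.57%. Under array median scaling 5 glycolysis genes rose. The call of Pkm, a pyruvate kinase, was lost without shp53 replicate 2 (largest adjusted p of 0.0722) or replicates 1 or 3 of RASV12 then shp53 (0.0579 and 0.0524), and under quantile scaling. Ifit2, Hoxb3, Hoxb6, Hoxb7, Pkm and Srxn1 did not pass in each group with close arrays averaged. Without the arrays that stood apart 5 glycolysis genes rose and 3 fell, and 7 antioxidant genes rose and 2 fell. In that setting 2337 of all 13938 genes tested rose and 2264 fell, and the glycolysis counts were near or under those shares.

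**Figure D4:**
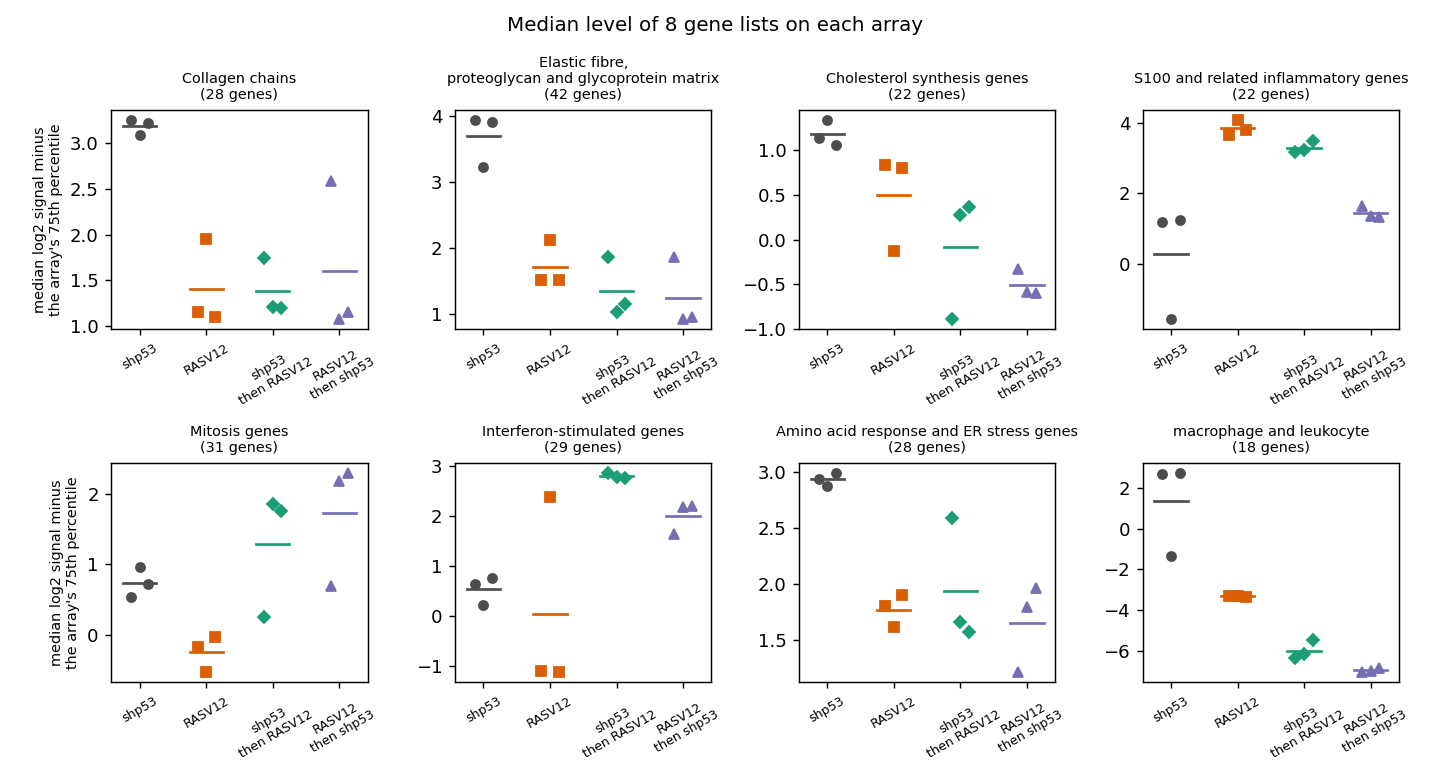
Median level of 8 gene lists on each array (vertical axes, log2 processed signal minus the array's 75th percentile, each panel on its own scale), with a bar at the mean of each group of 3 arrays. Collagen, elastic fibre, cholesterol and macrophage medians are below the shp53 arrays in all 3 RASV12 groups, while mitosis and interferon medians lie on both sides of shp53.

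The genes that passed in each group but in mixed directions had several patterns. Ppbp, a platelet chemokine, read -0.93, -0.11 and -0.72 on the shp53 arrays and 2.65, 2.53 and 2.91 with RASV12 alone, and was well above background on no array of the 2-vector groups. It was 3.28 higher with RASV12 alone and at least 44.9 and 42.4-fold lower in shp53 then RASV12 and RASV12 then shp53. Sncg, which encodes gamma-synuclein, and Spink6, a protease inhibitor, had the same signs. Sncg was 2.56 higher and at least 6.04 and 6-fold lower, and Spink6 3.38 higher and at least 1.94 and 1.83-fold lower. Pgr, the progesterone receptor, had another pattern: it read -1.02, -0.49 and -0.43 in RASV12 then shp53 against -2.55, -5.80 and -2.63 with shp53, and was well above background on no array of RASV12 alone or of shp53 then RASV12. Another probe of Pgr did not have one sign in the 3 groups either, and its average difference was 0.34.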

How the data were processed

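RNA of 12 cultures was measured on 1-colour Agilent arrays, labelled with Cy3 from 100 ng of total RNA, per the labels' protocols. The deposited intensity values are background-subtracted, detrended processed signals from Feature Extraction, version 11.5.1.1 per the file headers (10.7.3.1 per the submitters' processing notes), and the headers name mm9. Other columns used, per the file headers, are the spots' flags and control types. The authors' deposited log2 table, whose scale and centring are not stated, was used as an alternative: its 25916 probes matched the arrays' probes, and each column correlated with its array at r of 0.99 to 0.9998.

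From these, log2 processed signal minus each array's 75th percentile over non-control spots was computed, spots flagged as outliers were left out (0.333% of values, which left 64 missing values among the genes tested), and spots of a probe were averaged. Probes well above background on every array of at least 1 group were kept, and the brightest probe with 1 gene name stood for a gene. Genes were named by matching the files' transcript accessions to RefSeq (28330 of 39429 probes had 1 name). X and Y genes were left out using RefSeq positions (GRCm38.p6), leaving 13938 genes. Groups were taken from the sample titles. One limma fit (R 4.3.3, limma 3.58.1) of 4 group means over all 12 arrays gave the 3 differences from shp53, their average and the F-test among the RASV12 groups, with Benjamini-Hochberg adjustment over all genes. The labels do not say how cultures or embryos were separated, so the p-values rest on array-to-array spread, which may be technical, and 3 arrays per group limit the precision. On simulated data, 42%, 82% and 96% of genes changed by 1, 2 and 4 log2 units in all 3 groups were called in each group, and 0 of 300 genes changed in RASV12 alone were. The last count largely follows from the rule, since such genes had no change in the other groups. The simulated noise was independent between arrays, without the close pairs of the data, so these shares may not hold for the data.

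The comparison, the gene lists and the rules were chosen with earlier results of these data known. Named genes are the 12 largest rises and 12 largest falls by the smallest of the 3 differences (arrays not overlapping, measured in every group), up to 6 in each direction that were dim on one side, up to 4 members of each list that moved the same way in each group, the 4 largest mixed genes, and a set of RAS, p53 and matrix genes named regardless of their values. A few others are said to be chosen after their values were seen. Slides and replicate numbers coincide, and the slide effect is in the closing section. The 4 arrays that stand apart on their own, and normexp with extreme local backgrounds replaced, were alternatives chosen after seeing the data or earlier results of them.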

Additional observations from a re-analysis of the deposited data

Results flagged for a closer look

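The 3 RASV12 groups differed in the size of a shared change by the limma F-test (adjusted p under 0.05) for 349 of the genes higher in each group and 459 of those lower in each. These are 44.9% and 42.1%, near the 41.4% of all genes tested that passed the same F-test. Among the genes with the largest shared changes, the difference between the largest and the smallest of the 3 group differences was, in log2 units, 1.01 for Upp1, 2.35 for Gpr149, 2.13 for Bmp2, 1.90 for Sox7, 1.38 for Ttyh1, 1.33 for Gap43 and 3.78 for Mmp9. Among the lower genes it was 2.43 for Galnt16, 2.73 for Ogn, 5.30 for C1qtnf3 and 2.66 for Slc1a6.

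Data outside the comparison also held genes and probes that passed in each group. Of 506 genes on chromosomes X and Y that passed the filter, 32 were higher and 47 lower in each RASV12 group. That is near the 5.57% and 7.83% of autosomal genes tested. The lower ones include Tnmd, which encodes the tendon protein tenomodulin, at -6.22 on average, and the BMP antagonist Chrdl1 at -6.47, and the higher ones the ERK phosphatase Dusp9 at 3.60. Of 4855 kept probes without a gene name, 150 were higher and 105 lower in each group, both under those shares.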

How the results depend on the processing

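For the average differences of single genes under all alternatives, 4310 values kept direction and call, 105 lost the call, 20 gained one and 2 reversed. Another 6 changed sign and were called neither in the main result nor in that alternative. Calls in each group were lost more often, 264 of 3277. The reversed ones were Btc under normexp background correction (-0.03, adjusted p = 0.974) and Pdgfra without the arrays that stood apart (-0.16, adjusted p = 0.044), both by limma. Counts of genes moved more. They are given as higher and lower on average, higher and lower in each group, mixed, and shared genes that differ among the RASV12 groups. Under normexp they were 174 and 326, 29 and 65, 0 and 8, and with the extreme local backgrounds replaced the last pair was 44 and 500. Without the arrays that stood apart they were 5211 and 4526, 2337 and 2264, 1081 and 3531. With close arrays averaged they were 827 and 1193, 214 and 292, 17 and 86. Taking the 9 RASV12 arrays as 1 group gave 1330 and 1646 on average. Requiring at least a 2-fold difference gave 976 and 1602 on average, 378 higher in each, 59 mixed and 493 that differ. An adjusted p under 0.01 gave 1625 higher on average, 418 and 607 in each, 27 mixed and 319 that differ. Without the filter on dim probes 67 were mixed, and with detection on all arrays 695 were lower in each and 69 mixed. Adjusting the largest of the 3 p-values once gave 45 mixed. The authors' table called 770 and 1075 of the shared genes too, and keeping X and Y genes 775 and 1091. Apart from the smaller sets of genes or arrays, the cause of these shifts was not tested.

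Leaving out 1 array at a time gave 1734 to 3324 genes higher and 2113 to 3371 lower on average, 517 to 942 and 738 to 1277 in each group, 53 to 167 mixed and 502 to 1025 that differ among the RASV12 groups. The arrays whose omission moved a count by over 1.5 times were shp53 replicate 1 (1734 higher on average, 53 mixed), shp53 replicate 3 (1738 higher on average, 517 higher in each, 56 mixed, 531 that differ), RASV12 replicate 1 (502 that differ), RASV12 replicate 3 (526), RASV12 replicate 2 (167 mixed) and replicates 1 and 3 of RASV12 then shp53 (162 and 69 mixed).

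The replicate block, with the replicate number (equal to the slide) as a term, gave 803 higher and 1098 lower genes in each group, 738 and 1046 of them shared with the result without it, 2830 and 2947 on average, 114 mixed and 814 that differ. Same-numbered arrays had correlated deviations of 0.60, 0.45 and 0.32 between both 2-vector groups, all over 0.1, and of -0.34 to 0.26 between the other groups, never over 0.1 for all 3 numbers of a pair of groups, and 5 of 12 arrays correlated best with their own number. Same-numbered arrays share a slide as well as a number. The deviations of both 2-vector groups were correlated, so these groups were not independent of each other in a call in each group. The cause of the correlation was not tested. Of 133 named genes called in each group, 2 lost that call under the block. On each slide taken alone, all 3 slides had the same sign for 774 of the 777 higher and 1090 of the 1091 lower genes. These genes were chosen on the same arrays, so that agreement largely follows from the choice. The number of arrays and signal over background limit the smallest differences: genes dim in a group have bounds only.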
